A study of Mus musculus with 8 samples.

Results

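Polycomb repressive complex 1 (PRC1), the Polycomb repressive deubiquitinase (PR-DUB) and the H3K27 demethylases are the machinery that reads, extends and undoes the chromatin state laid down by Ezh2. Their expression was examined in molar mesenchyme of PN day 3 mice with and without *Osr2-Cre*-mediated deletion of *Ezh2*. The 32 genes were taken by name: 13 encode subunits of canonical PRC1, 11 encode subunits or partners of variant PRC1, 2 encode other MBT-domain proteins, 4 encode PR-DUB and 2 encode H3K27 demethylases. All 32 were found among the 20926 genes of the RNA-seq table, and 31 passed the filter on low values.

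The experiment compared 4 libraries from Ezh2fl/fl molars (control) with 4 from Osr2KI-Cre;Ezh2fl/fl molars (*Osr2-Cre;Ezh2fl/fl*), all at PN day 3. The labels give the strain as C57BL/6, while the study's methods describe a mixed background. Both groups carried the floxed *Ezh2* alleles, and the control genotype names no Cre, so effects of the *Osr2-Cre* knock-in allele cannot be told apart from those of *Ezh2* deletion. The Cre acts in mesenchymal cells of the tooth and in the surrounding jaw bone, and not in epithelial cells. The submitters describe taking off the epithelium before RNA isolation. The labels do not say how many animals made up a library, so p-values measure the spread between these libraries.

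As background, Ezh2 is the catalytic subunit of PRC2 and trimethylates H3K27. Canonical PRC1 binds this mark through its Cbx subunits, compacts chromatin and, through Ring1 or Rnf2, ubiquitinates histone H2A. Variant PRC1 carries Rybp or Yaf2 in place of a Cbx subunit and reaches chromatin by other routes. Bap1 with an Asxl protein forms PR-DUB, which removes the H2A ubiquitin, and Kdm6a and Kdm6b remove methyl groups from H3K27. Bmi1 is best known as a repressor of *Cdkn2a* and as a factor for the maintenance of stem cells, including those of the mouse incisor.

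Values are the authors' scaled expression values, which have no gene-length factor. Fold changes are differences in mean log2(value + 1) between *Osr2-Cre;Ezh2fl/fl* and control, tested with limma over 14854 genes with Benjamini-Hochberg adjustment. Estimated depth was 48.3 to 68.8 M reads per library. Across libraries 1 to 4, *Ezh2* itself read 55.0, 38.3, 39.6 and 39.0 in control molars, against 35.2, 30.1, 23.2 and 36.0 in *Osr2-Cre;Ezh2fl/fl* molars. The mutant libraries lay below all controls, with a log2 difference of -0.46 (SE, the standard error, 0.16; limma adjusted p = 0.235), and *Ezh2* transcript was present in every mutant library. These values do not measure the protein. By immunofluorescence of newborn molars, the study detected neither Ezh2 protein nor H3K27Me3 in the mutant mesenchyme. In tissue of mixed cells, fewer cells of a type and less RNA per cell cannot be told apart. Transcripts of ameloblasts and epithelium were present in every library, with the enamel gene *Amelx* between 316 and 16250 and the keratin gene *Krt14* between 329 and 938.

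*Bmi1* was the only one of the 31 genes tested that passed the adjusted threshold. It was upregulated about 2.07-fold (limma adjusted p = 0.000320), while none of the 31 fell. Of all genes tested, 2.07% were called, 1.56% as higher and 0.512% as lower. The 31 genes had a median log2 fold change of 0.01, the same as all genes. By complex, 11 of 13 canonical PRC1 genes had a positive log2 difference (median 0.06), as did 5 of 11 variant PRC1 genes (median -0.04), 1 of 4 PR-DUB genes (median -0.03) and 1 of 2 demethylase genes, and 19 of the 31 were positive in all, against 8032 of the 14854 genes tested. With 1 library left out, 8 to 11 of the 13 canonical genes were positive. Median-of-ratios scaling moved the median of all genes from 0.01 to -0.02. *Cbx6*, *Phc3*, *Kdm2b*, *L3mbtl3*, *Asxl1* and *Kdm6a*, which lay near 0, turned negative with it, and 9 of the 13 canonical genes were then positive. At an unadjusted p under 0.05, 6 of the 31 were higher (*Bmi1*, *Pcgf5*, *Pcgf2*, *Rnf2*, *Cbx8* and *Rybp*) and 0 were lower, against 8.27% and 4.87% of all genes. For 6 of the 31 (*Bmi1*, *Pcgf5*, *Pcgf2*, *Rnf2*, *Cbx8* and *Yaf2*) all 4 *Osr2-Cre;Ezh2fl/fl* values lay above all 4 control values, and for 0 of them they lay below. Among all genes tested, 5.76% and 2.77% were separated in these directions.

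**Figure D1:**
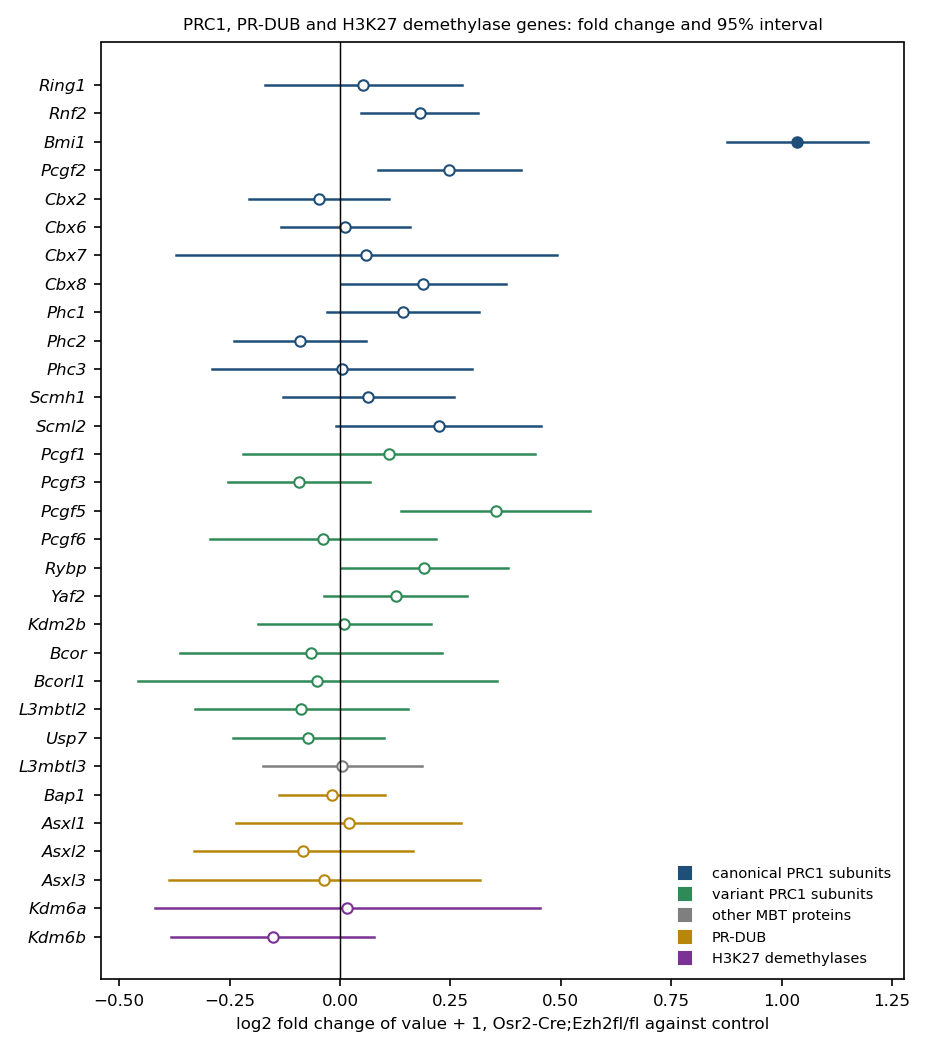
Log2 fold change of value + 1 (x axis) for the 31 genes tested, with 95% intervals from limma as lines and the complex of each gene in color. The filled point marks an adjusted p under 0.05 and is *Bmi1* at 1.03, while the other 30 lie between -0.15 and 0.35.

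The intervals limit how large a change in the other genes could be. The 95% interval of the log2 fold change stayed within 0.5 of 0 for 29 of the 31 genes. For all genes tested the share was 75%. The exceptions were *Bmi1* and *Pcgf5*, whose interval ran from 0.14 to 0.57.

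*Bmi1* encodes a RING finger subunit that pairs with Ring1 or Rnf2 in canonical PRC1. The gene occupies chr2:18677018-18686629 of mm10 (GRCm38), plus strand, and no other annotated gene overlaps it. The RefSeq window of 250 bases before its transcription start, on the plus strand of GRCm38.p6 at chr2:18676768-18677017, is shown because *Bmi1* is the gene whose expression changed. Capitals mark CACGTG, which reads the same on both strands and is the E-box bound by Myc family and other basic helix-loop-helix proteins.
Bmi1: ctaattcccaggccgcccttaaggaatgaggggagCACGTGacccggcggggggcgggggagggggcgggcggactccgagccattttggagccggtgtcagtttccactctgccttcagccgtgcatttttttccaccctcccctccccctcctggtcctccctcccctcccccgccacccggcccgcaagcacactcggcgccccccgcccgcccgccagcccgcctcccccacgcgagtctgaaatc

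The window holds 1 CACGTG, which ends 209 bases before the start, and 6 matches to the GC box GGGCGG counted on both strands, some of them overlapping. In RefSeq windows of 300 bases around the start, CACGTG occurs in 7.15% of 32851 promoters and GGGCGG on either strand in 35.7%. The 26 genes of the set with a RefSeq entry have 36 promoters, of which 10 hold CACGTG and 26 hold GGGCGG. Counted by gene, 10 genes have a promoter with CACGTG (*Asxl2*, *Bap1*, *Bcorl1*, *Bmi1*, *Cbx6*, *Cbx8*, *Kdm6a*, *Pcgf2*, *Phc2* and *Phc3*) and 21 have one with GGGCGG. The *Bmi1* promoter has 23 CpG dinucleotides, more than 78.5% of all promoters. These letters are a description of the sequence, and most genes that share them were not called.

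In the 4 control libraries, *Bmi1* read 50.7, 48.6, 52.7 and 47.5. The *Osr2-Cre;Ezh2fl/fl* libraries read 95.1, 108, 98.9 and 111. The groups were far apart, and neither group had a library that stood away from the rest. The means were 49.9 ± 2.31 and 103 ± 7.55 (SD, n = 4 each). On the log2 scale the difference was 1.03 (SE 0.07, 95% interval 0.88 to 1.19). By p-value *Bmi1* ranked number 4 of the 14854 genes tested, and by log2 fold change it ranked number 63 of the 232 genes that rose.

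The rise was about as large with *Xist*, the transcript of the inactive X chromosome, or ameloblast transcripts, which varied widely between libraries, in the model. It was 1.03 on the log2 scale with log2 *Xist* as a covariate and 1.01 with the ameloblast transcripts as a covariate. With any 1 library omitted it stayed between 1.00 and 1.07, and limma's adjusted p between 0.00156 and 0.00707. *Cdkn2a*, which Bmi1 is known to repress and which was added here after its values were known, was also higher, with a mean of 0.137 ± 0.0171 in control molars against 1.88 ± 0.299 in mutant molars (SD, n = 4 each), a ratio of 13.8. Its log2(value + 1) difference of 1.34 understates this ratio, since the control values lie far under 1. *Cdkn2a* passed the filter on low values only through the mutant libraries, where it was high, so no p-value is given for it.

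**Figure D2:**
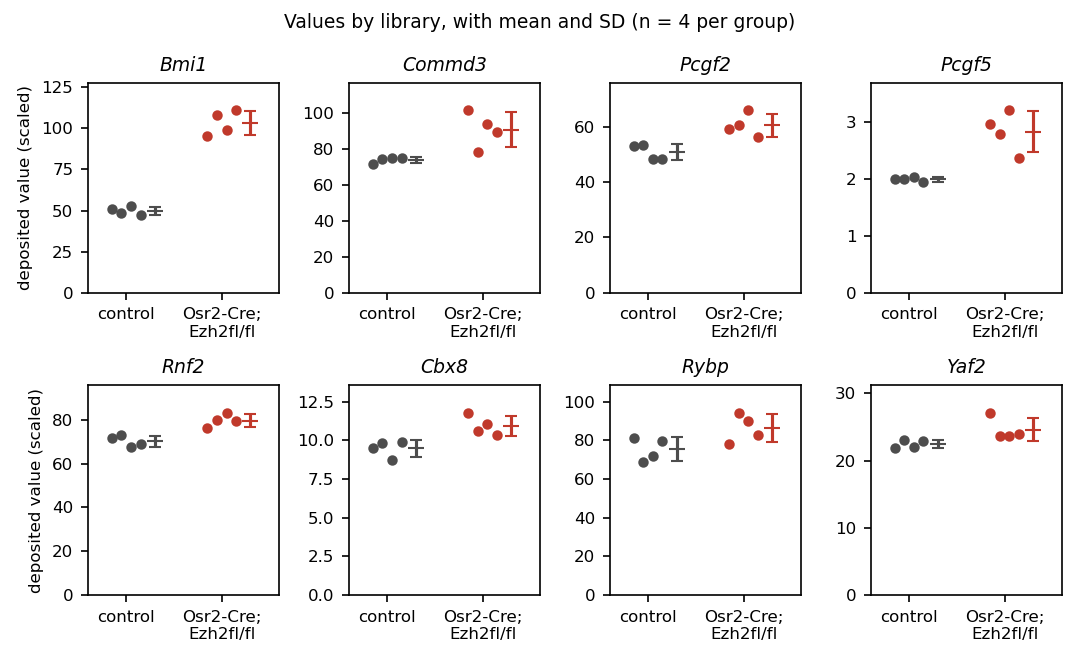
Deposited scaled value (y axis, from 0) in each library for the 6 genes of the set with separated groups, for *Rybp* and for *Commd3*, the gene next to *Bmi1*; bars give mean and SD of 4 libraries. *Bmi1* rose from 49.9 to 103, while the shifts in the other panels are smaller and *Rybp* overlaps between groups.

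*Commd3*, which encodes a COMM-domain protein, ends 786 bases before *Bmi1* on the same strand, so that transcripts running from one into the other could be counted for either. *Commd3* read 71.7, 74.6, 75.2 and 75.1 in the control libraries and 102, 78.2, 94.0 and 89.4 in the mutant libraries. All mutant values lay above all controls, with a log2 difference of 0.28 (SE 0.08; limma adjusted p = 0.138). The ratio of *Bmi1* to *Commd3* values was 0.632 to 0.708 in the control libraries and 0.936, 1.39, 1.05 and 1.24 in the mutant libraries 1 to 4. In mutant library 2 the ratio was highest and *Commd3* was lowest, close to the control level.

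Within 500 kb of *Bmi1* the table lists 7 other genes. The cilium gene *Spag6*, which starts 7402 bases after *Bmi1* on the same strand, was too low for the test, with an estimated 2 to 8 reads per control library and 9 to 21 per mutant library. Its values were 0.0516 to 0.122 and 0.190 to 0.332, without overlap (p = 0.0286 by a two-sided exact permutation test, which can give no smaller p with 4 libraries against 4). Farther away, *Pip4k2a*, *Dnajc1* and *Mllt10* had log2 fold changes of 0.00, 0.00 and 0.04, with adjusted p-values of at least 0.922 from limma. *Gm13351* and *4930426L09Rik* were too low for the test and overlapped between groups. All of these neighbours but *Commd3* were chosen with their values already known.

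The Pcgf family decides which kind of PRC1 forms, since each complex holds 1 Pcgf protein. Bmi1 (also called Pcgf4) and Pcgf2 define canonical PRC1, Pcgf1 joins Bcor and Kdm2b, Pcgf3 and Pcgf5 define further variant complexes, and Pcgf6 joins L3mbtl2. On the value per kb of exon, which allows levels of different genes to be compared, *Pcgf2* was highest in control molars at 14.4 ± 0.820, followed by *Bmi1* at 12.5 ± 0.581, *Pcgf3* at 8.01 ± 0.244, *Pcgf1* at 4.14 ± 0.351, *Pcgf6* at 2.37 ± 0.265 and *Pcgf5* at 0.158 ± 0.00336 (SD, n = 4 each). In *Osr2-Cre;Ezh2fl/fl* molars *Bmi1* came first at 26.0 ± 1.90 and *Pcgf2* second at 17.1 ± 1.16, with the order of the others as in control. On this scale, which rests on the union of annotated exons as gene length, the order of these 2 genes turned between the groups in every library. Without the length factor, control library 3 had *Bmi1* at 52.7 and *Pcgf2* at 48.3. The ratio of *Bmi1* to *Pcgf2* per kb read 0.846, 0.808, 0.968 and 0.874 in the control libraries, against 1.43, 1.58, 1.33 and 1.75 in the mutant libraries.

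*Bmi1* made up 30.2% ± 1.27 of the summed Pcgf level per kb in control and 45.0% ± 3.25 in *Osr2-Cre;Ezh2fl/fl* molars (SD, n = 4 each). The summed level itself was 41.6 ± 0.755 and 57.8 ± 1.61. As the sum grew, the share of *Pcgf2* was 34.6% in control and 29.7% in the mutant. These shares describe transcripts and rest on the union of annotated exons as gene length.

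**Figure D3:**
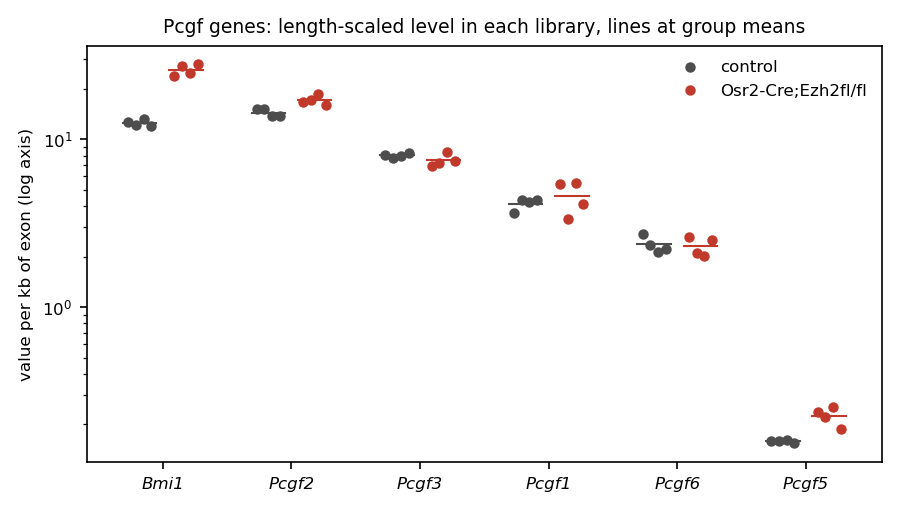
Value per kb of exon (log axis) of the 6 Pcgf genes in each library, with lines at group means. *Bmi1* lies under *Pcgf2* in the 4 control libraries and above it in the 4 *Osr2-Cre;Ezh2fl/fl* libraries, and *Pcgf5* is the lowest of the 6 in every library.

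*Pcgf2*, the closest paralog of *Bmi1*, had values of 53.2, 53.3, 48.3 and 48.2 in control and 59.1, 60.7, 65.9 and 56.1 in mutant libraries 1 to 4. The groups did not overlap, and they differed by 0.25 on the log2 scale (SE 0.07; limma adjusted p = 0.143). *Pcgf5* was 2.00, 2.00, 2.05 and 1.94 in control and 2.98, 2.79, 3.21 and 2.37 in mutant libraries 1 to 4. The 4 control values were nearly equal and the mutant values were all higher, by 0.35 on the log2 scale (SE 0.10; limma adjusted p = 0.112). *Pcgf5* overlaps 4 annotated genes and its interval in the table is narrower than the annotated gene, so its level is uncertain. *Pcgf1*, *Pcgf3* and *Pcgf6* overlapped between groups, with log2 fold changes of 0.11, -0.09 and -0.04 and adjusted p-values of at least 0.702 from limma.

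The catalytic subunits were *Ring1* and *Rnf2*, which encode the E3 ligases that ubiquitinate H2A. *Rnf2* was the more abundant on the per-kb scale, at 17.0 ± 0.601 in control against 8.36 ± 0.989 for *Ring1* (SD, n = 4 each). *Rnf2* had values of 71.6, 72.8, 67.4 and 68.8 in control and 76.0, 79.7, 83.3 and 79.5 in mutant libraries 1 to 4. All mutant values were above the controls by a small margin, 0.18 on the log2 scale (SE 0.06, 95% interval 0.05 to 0.31; limma adjusted p = 0.202). *Rnf2* overlaps *Gm36527* on its own strand and *Trmt1l* on the opposite one. *Ring1* ranged from 23.9 to 31.5 in control and from 25.6 to 31.4 in mutant molars, so the groups covered nearly the same range.

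The Cbx subunits carry the chromodomain that binds trimethylated H3K27. Per kb of exon, *Cbx6* (7.32 ± 0.229) and *Cbx2* (6.42 ± 0.322) were higher in control molars than *Cbx8* (2.58 ± 0.148) and *Cbx7* (1.19 ± 0.251; SD, n = 4 each), and the mutant means had the same order. *Cbx8* was 9.52, 9.82, 8.70 and 9.88 in control and 11.8, 10.6, 11.1 and 10.3 in mutant libraries 1 to 4. It was separated between groups by 0.19 on the log2 scale (SE 0.08; limma adjusted p = 0.372). *Cbx2* and *Cbx6* had log2 fold changes of -0.05 and 0.01, with 95% intervals from -0.21 to 0.11 and from -0.13 to 0.16. *Cbx7* varied most, with 7.62, 10.04, 6.70 and 6.48 in control and 8.29, 6.14, 11.6 and 6.73 in mutant libraries 1 to 4, and its 95% interval ran from -0.37 to 0.49.

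The Phc proteins polymerize through their SAM domains and bring PRC1 complexes together. *Phc2* was highest per kb in control, at 14.1 ± 0.375, then *Phc1* at 9.61 ± 0.492 and *Phc3* at 2.98 ± 0.222 (SD, n = 4 each). *Phc1* was 48.0 to 53.9 in control and 51.2 to 62.7 in mutant molars, *Phc2* was 96.2 to 102 and 84.0 to 98.0, and *Phc3* was 48.0 to 57.2 and 40.7 to 66.0. All 3 overlapped between groups, with adjusted p-values of at least 0.501 from limma. The SAM- and MBT-domain proteins *Scmh1* and *Scml2* had log2 fold changes of 0.06 and 0.22 (adjusted p = 0.865 and 0.412 from limma). *Scml2*, which is X-linked, was 8.15 to 9.78 in control and 9.33 to 11.8 in mutant libraries.

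Variant PRC1 was represented by *Rybp* and *Yaf2*, whose products bind Ring1 or Rnf2 and stimulate their activity. *Rybp* was 81.5, 68.8, 71.8 and 79.8 in control and 78.0, 94.3, 90.2 and 82.7 in mutant libraries 1 to 4, with overlapping groups and a log2 fold change of 0.19 (adjusted p = 0.372 from limma). *Yaf2* was 21.8, 23.0, 22.1 and 22.9 in control and 27.1, 23.6, 23.7 and 24.0 in mutant libraries 1 to 4. Its groups did not overlap, but the margin was small and library 1 of the mutant was well above the other 3. Its log2 difference was 0.13 (limma adjusted p = 0.539).

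*Kdm2b* encodes the CxxC-domain demethylase that brings variant PRC1 to CpG islands. It had values of 33.8 to 40.6 in control and 34.4 to 41.8 in mutant molars, with a log2 fold change of 0.01 and a 95% interval from -0.19 to 0.21. *Usp7*, a deubiquitinase that associates with variant PRC1, was the most abundant of the 32 genes in control molars per kb of exon, at 22.9 ± 0.587 (SD, n = 4) and had a log2 difference of -0.07. *L3mbtl2*, the MBT protein of Pcgf6 complexes, was 16.5 to 18.9 in control and 13.4 to 18.9 in mutant molars, a log2 difference of -0.09, and limma gave adjusted p-values of at least 0.814 for these 3 genes.

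The corepressor genes *Bcor* and *Bcorl1* are X-linked and varied together within the mutant group. In mutant libraries 1 to 4 *Bcor* was 55.6, 86.0, 58.0 and 75.7, and *Bcorl1* was 11.6, 19.6, 11.8 and 17.1. Both genes were high in mutant libraries 2 and 4 and low in libraries 1 and 3. Mutant library 1, which had almost no *Xist*, held the lowest *Bcor* value of its group, and so did control library 2, which also had almost none, at 67.4. Mutant library 3 had the highest *Xist* of all libraries, at 2648, and its *Bcor* was nearly as low as in mutant library 1, at 58.0. *Bcorl1* was not lowest in control library 2. The control values of *Bcor* were 67.4 to 73.8 and those of *Bcorl1* were 13.1 to 19.3. The log2 fold changes were -0.07 and -0.05 (adjusted p = 0.919 and 0.954 from limma), -0.08 and -0.07 with log2 *Xist* as a covariate (adjusted p = 0.865 and 0.934), and -0.14 and -0.24 with the ameloblast transcripts as a covariate (adjusted p = 0.664 and 0.488).

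*L3mbtl3* and *L3mbtl1* encode MBT proteins that bind methylated lysines and compact chromatin. *L3mbtl3* was 26.4 to 27.8 in control and 24.1 to 29.9 in mutant molars, with a log2 fold change of 0.01. *L3mbtl1* was the gene that failed the filter, at an estimated 9 to 12 reads per control library and 11 to 23 per mutant library. Its values of 0.208, 0.174, 0.224 and 0.153 in control and 0.227, 0.288, 0.339 and 0.181 in mutant libraries 1 to 4 overlapped (two-sided exact permutation test, p = 0.114).

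Among PR-DUB genes, *Bap1*, the deubiquitinase itself, had the smallest standard error of the 31 genes, 0.05 on the log2 scale. It was 85.6, 91.0, 89.2 and 88.8 in control and 86.3, 87.9, 86.9 and 89.1 in mutant libraries 1 to 4, with a log2 fold change of -0.02 and a 95% interval from -0.14 to 0.10. The Asxl scaffold genes that Bap1 needs for activity were led by *Asxl1* at 10.9 ± 0.719 per kb in control, against 2.83 ± 0.175 for *Asxl2* and 2.30 ± 0.336 for *Asxl3* (SD, n = 4 each). All 3 Asxl genes were highest in mutant library 3. *Asxl1* was 105 there against 72.3 to 79.6 in the other mutant libraries, *Asxl2* was 52.9 against 36.3 to 42.2, and *Asxl3* was 46.9 against 28.9 to 34.4. Their log2 fold changes were 0.02, -0.08 and -0.04, with adjusted p-values of at least 0.864 from limma.

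The H3K27 demethylase gene *Kdm6a* (Utx) is X-linked and is known to escape X inactivation, and *Uty* is its Y-linked paralog. *Kdm6a* was 58.8, 50.1, 59.0 and 61.6 in control and 40.0, 66.0, 83.6 and 50.7 in mutant libraries 1 to 4. The mutant values spread to both sides of the controls, and the log2 difference of the means was 0.02 (SE 0.19, 95% interval -0.42 to 0.45; limma adjusted p = 0.986). *Xist* was 0.373 in control library 2 and 0.414 in mutant library 1, and these held the lowest *Kdm6a* value of their group. *Ddx3y*, from the Y chromosome, was 0.0455 and 0.0424 in mutant libraries 2 and 3, which held the highest *Kdm6a* values.

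The other 4 libraries, control 1, 3 and 4 and mutant 4, had *Xist* and *Ddx3y* above 10 and intermediate *Kdm6a*. These libraries may hold tissue of both sexes, and thus of more than 1 animal, which the labels do not state and which was not tested. The sum of *Kdm6a* and *Uty* values was 74.7, 74.4, 74.6 and 71.5 in control and 62.8, 66.0, 83.7 and 70.4 in mutant libraries 1 to 4. In control the sum covered a narrower range, 71.5 to 74.7, than *Kdm6a* alone, 50.1 to 61.6. With log2 *Xist* as a covariate the log2 fold change of *Kdm6a* was -0.03, and its standard error went from 0.19 to 0.13.

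**Figure D4:**
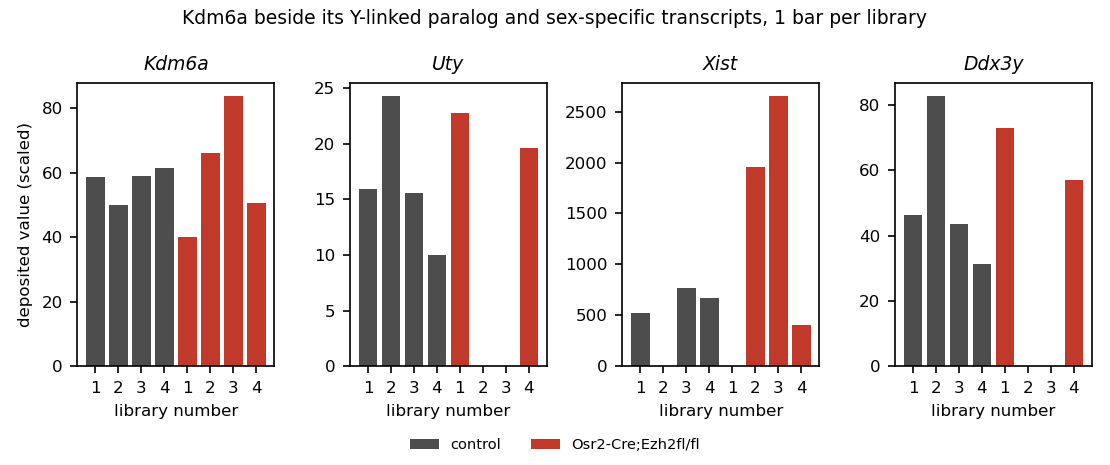
Deposited scaled value (y axes, from 0) of *Kdm6a*, *Uty*, *Xist* and *Ddx3y* in each library, 1 bar per library. Control library 2 and mutant library 1 have *Ddx3y* and almost no *Xist*, mutant libraries 2 and 3 have *Xist* and almost no *Ddx3y*, and *Kdm6a* follows this order from 40.0 to 83.6 in the mutant.

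*Kdm6b* (Jmjd3), the autosomal and inducible H3K27 demethylase gene, had the lowest log2 fold change of the 31 genes with all libraries, a place it did not keep under every alternative. Its values were 66.5, 61.7, 67.1 and 68.5 in control and 47.9, 65.3, 66.4 and 59.1 in mutant libraries 1 to 4. Mutant library 1 was the lowest and the groups overlapped, and the log2 difference was -0.15 (SE 0.10, 95% interval -0.38 to 0.08; limma adjusted p = 0.635). Without mutant library 1 it was -0.053, closer to 0 than that of *Phc2* at -0.11. Without mutant library 4 it was -0.152, against -0.156 for *L3mbtl2*. With the ameloblast covariate it was -0.110, against -0.243 for *Bcorl1*. *Kdm6bos* is annotated on the opposite strand.

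The mutant libraries differed more among themselves than the controls did. The SD of log2(value + 1) was larger in the mutant group for 28 of the 31 genes, and for 74.5% of all genes tested. Mutant library 3 held the highest mutant value for 13 of the 31 genes and mutant library 1 the lowest for 16, against 29.7% and 25.8% of all genes. The exceptions were *Ring1*, *Cbx2* and *Bap1*. Among the 28, the SD of *Bmi1* was 0.07 in control and 0.10 in the mutant on the log2 scale, and that of *Kdm6a* was the largest in the mutant, at 0.45 against 0.13 in control. Mutant library 3 also had the lowest *Mki67*, a proliferation gene, at 230 against 287 to 390 in the other mutant libraries. It had the highest *Amelx* of its group, at 7818 against 316 to 807 in the other mutant libraries. *Enam* was 2048 against 23.3 to 56.4 and *Dspp* was 2328 against 556 to 799. The part of these differences in the results was not tested beyond the covariates given.

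**Figure D5:**
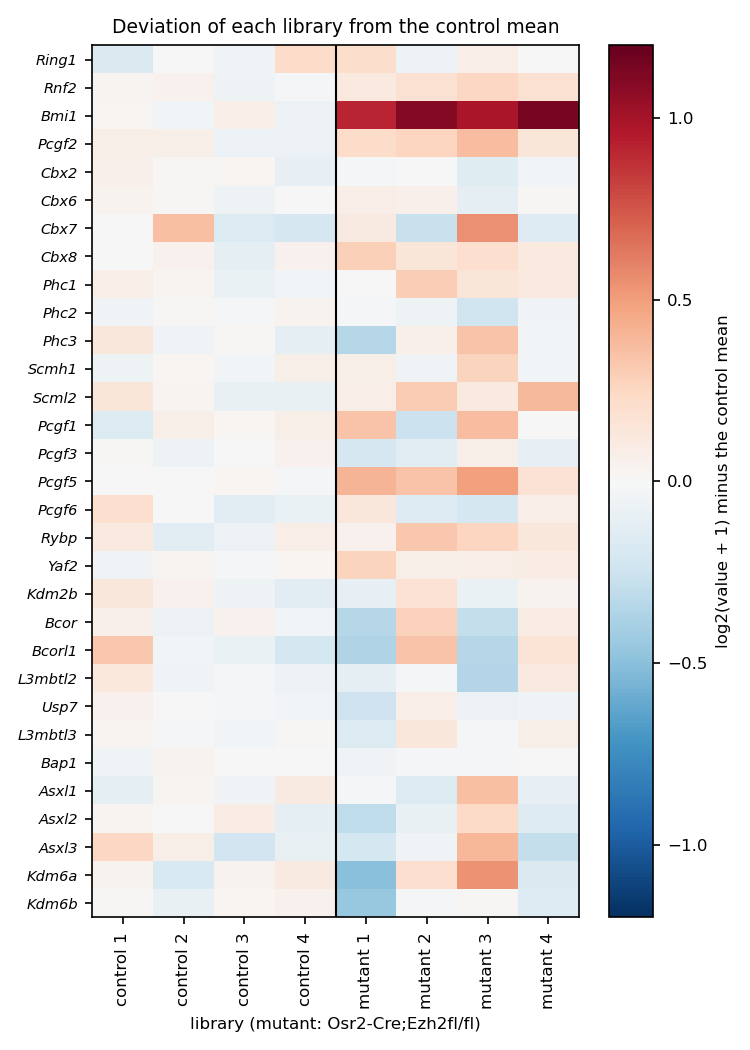
Log2(value + 1) of each library minus the control mean for the 31 genes tested, with genes in rows and libraries in columns (mutant, *Osr2-Cre;Ezh2fl/fl*). *Bmi1* is high in all 4 mutant libraries, *Kdm6a* and *Phc3* differ in sign between mutant libraries 1 and 3, and *Bap1* stays near 0.

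Partner genes of the same pathway were not called. Of 11 PRC2 core and accessory genes, 15 other partners of variant PRC1, 7 partners of PR-DUB and 8 partners of Kdm6a in its COMPASS complex, all were tested and 0 had an adjusted p under 0.05 in limma, where 2.07% of all genes did, so that a count of 0 among so few genes is near the background. At the unadjusted threshold 1 PRC2 gene was higher (*Phf19*, log2 fold change 0.19) and 2 were lower (*Ezh2* and *Jarid2*, -0.46 and -0.23), and none of the other 3 lists had one. The median log2 fold changes of the 4 lists were 0.01, -0.00, -0.04 and -0.02, against 0.01 over all genes. Besides *Ezh2*, the smallest adjusted p-values in these lists belonged to *Hdac2* (0.678), *Foxk1* (0.615) and *Pagr1a* (0.847) by limma. Their log2 fold changes were -0.09, -0.12 and 0.10.

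Marker lists were read for the cells the samples could hold. In limma 0 of 10 proliferation genes, 0 of 6 ameloblast, 0 of 7 epithelial, 0 of 5 endothelial, 0 of 6 macrophage and osteoclast, 0 of 3 Schwann cell, 0 of 2 muscle, 0 of 4 erythroid and 0 of 5 sex-specific genes tested had an adjusted p under 0.05. At an unadjusted p under 0.05, 2 ameloblast, 3 epithelial and 3 endothelial genes were lower and none of these 9 lists had a higher gene, against 4.87% of all genes lower and 8.27% higher. All ameloblast and epithelial genes tested had negative log2 differences (medians -1.48 and -0.41), with summed values of 811 to 28715 and 2172 to 4690 in control and 738 to 11512 and 2025 to 2879 in mutant libraries. Their part in the results was not tested beyond the ameloblast covariate. *Lhx8*, among 10 dental mesenchyme genes, and *Ibsp*, a bone and cementum matrix gene among 7 odontoblast genes, rose with log2 fold changes of 1.17 and 1.87 (limma adjusted p = 0.00509 and 0.00126). Of the 7 odontoblast genes, 5 had negative log2 differences (median -0.35), and *Dspp* and *Phex* were lower at an unadjusted p under 0.05, with -1.13 and -0.98 (limma adjusted p = 0.256 and 0.1003). Of the 10 dental mesenchyme genes, 3 were higher at that threshold and 0 were lower. The summed values of the endothelial list were 317 to 356 in control and 279 to 303 in mutant libraries, while those of the proliferation list (980 to 1234 and 738 to 1225) and of the dental mesenchyme list (7950 to 9775 and 6248 to 9388) overlapped.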

How the data were processed

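Molar mesenchyme RNA was measured by single-end RNA-seq in 8 libraries, 4 per group, grouped and numbered by the sample titles. The study's methods state 4 mice per group for RNA isolation but fewer pairs of samples for sequencing; all 8 libraries were used here. The study's methods describe trimming, TopHat alignment to mm10 and RPKM, while the submitters' processing notes list STAR 2.5.3a, CASAVA 1.8.2 and Partek. The deposited values were treated as a scaled signal made by the authors, because they hold no factor for gene length. Per library, 1 smallest value is shared by genes of all lengths and the 75th percentile is near 38.46. The smallest value was read as 1 added read, and estimated reads are value / smallest value - 1. These estimates are approximate and carry at least counting error. Since 62.5% of values under 20 times the smallest were whole multiples (tolerance 0.02), no count test was run. Columns of other samples numbered 0.

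The test was limma 3.58.1 (R 4.3.3; lmFit, eBayes with trend) on log2(value + 1) for the 14854 genes at 1 or more in 4 or more libraries, adjusted by Benjamini-Hochberg. Single genes below the filter had two-sided exact permutation tests over 70 arrangements. On simulated data with 200 changed genes among 14854, 92.5% were called, 88.0% at a log2 change of 1 and 97.0% at 2, and 4.64% of calls were false. The replicate numbers are shared by the groups, but deviations of same-numbered libraries correlated at -0.34, -0.08, 0.22 and -0.43 across genes, so the block is an alternative only. Other alternatives were a pseudocount of 0.1, no filter or a filter at 10, median-of-ratios or quantile scaling, no trend, *Xist* or ameloblast covariates (*Amelx*, *Ambn*, *Enam*) and each library left out.

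Positions, overlaps and exon lengths came from GENCODE M21 (GRCm38, the build of mm10), with table and annotated starts equal for 29 of 32 genes, and promoters from RefSeq (GRCm38.p6) for 26. Strand use in counting is not given in the sources used here, and 10 of the 32 genes overlap a gene on the opposite strand. The genes and lists were chosen with earlier results of these data known. All 32 genes are named, with *Commd3*, and in partner lists the called gene or else the one with the smallest adjusted p. *Myog* of the muscle list was not analysed here. Plots used Python 3.11.15 and matplotlib 3.10.9.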

Additional observations from a re-analysis of the deposited data

Results flagged for a closer look

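In 2 of the 66 groups of 4 libraries examined, 1 library lay apart, judged by the gap to its nearest neighbour divided by the whole spread of log2(value + 1). Chance gives about 3.3 such groups. *Yaf2* was 27.1 in *Osr2-Cre;Ezh2fl/fl* library 1 against 23.6 to 24.0 in the other mutant libraries (gap over range 0.890). Control library 1 read 55.0 for *Ezh2*, where the remaining controls read 38.3 to 39.6 (gap over range 0.909).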

How the results depend on the processing

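*Bmi1* was the 1 gene of the set called under every alternative run, with log2 fold changes from 1.00 to 1.07, and no other member was called in any of them. Over all genes, 308 were called, 119 with the filter at a value of 10 and 73 with the replicate block (64 higher and 9 lower), and 128 to 384 with 1 library left out. The lowest count came without control library 3, and counts also fell by over 1.5 times without control libraries 2 or 4 (159 and 171) and mutant libraries 2 or 4 (151 and 146). The replicate block gave *Bmi1* an adjusted p of 0.0128 in limma and changed no other call in the set. *Ezh2* was -0.64 (adjusted p = 0.0274 from limma) with the ameloblast covariate, and -0.53 to -0.32 with 1 library left out. *L3mbtl1* was 0.050 to 0.11 with 1 library left out and was separated only without mutant library 4 (0.11, exact permutation p = 0.0286, n = 3 against 4), and it was 0.29 with a pseudocount of 0.1 against 0.08 with 1 (exact permutation p = 0.114 for both). The cause of these shifts was not tested.

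*Kdm6b* was -0.21 to -0.053 with 1 library left out. Members close to 0 changed sign, 14 of them with some library left out, none larger than 0.09 in size with all libraries. The reversed log2 differences were *Cbx6* -0.019, *Phc3* -0.027, *Kdm2b* -0.022, *L3mbtl3* -0.025, *Asxl1* -0.012 and *Kdm6a* -0.014 with median-of-ratios scaling, *L3mbtl3* -0.0075 with quantile normalization, *Phc3* -0.019, *L3mbtl3* -0.0039 and *Kdm6a* -0.026 with the *Xist* covariate and *Cbx6* -0.034, *Kdm2b* -0.071 and *L3mbtl3* -0.019 with the ameloblast covariate. With 1 library left out, the ranges were *Ring1* -0.0033 to 0.13, *Cbx6* -0.012 to 0.055, *Cbx7* -0.10 to 0.18, *Phc3* -0.11 to 0.12, *Scmh1* -0.0035 to 0.10, *Pcgf6* -0.10 to 0.030, *Kdm2b* -0.045 to 0.054, *Bcor* -0.18 to 0.028, *Bcorl1* -0.18 to 0.055, *L3mbtl2* -0.16 to 0.00063, *L3mbtl3* -0.039 to 0.063, *Asxl1* -0.095 to 0.080, *Asxl3* -0.18 to 0.048 and *Kdm6a* -0.16 to 0.19.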
